A study of Mus musculus with 6 samples.

Results

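Motile cilium genes were followed in RNA sequencing libraries of mouse thymic tuft cells. They were taken by symbol: genes whose name starts with Dnah, Dnai, Dnaaf, Rsph, Tekt or Cfap and a digit, and 14 further genes of multiciliated cells (Foxj1, Mcidas, Gmnc, Rfx2, Rfx3, Sntn, Cdhr3, Cdhr4, Ccdc39, Ccdc40, Dynlrb2, Tmem212, Spag6l and Hydin). Of 55471 genes in the deposited table, 86 were members, 78 by the symbol in the gene name table and 8 through another symbol of the same gene (for example Dnai2, listed as Dnaic2, and Cfap20dc, listed as 4930452B06Rik). One of the 78, Dnah2os, is an opposite-strand transcript that matches the name rule without encoding an axonemal protein.

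Tuft cells are chemosensory epithelial cells. Here they were sorted from mouse thymus on the surface protein L1CAM. Both groups carried floxed Ikzf1 (Ikzf1fl/fl), the gene of the transcription factor Ikaros; the Cre-positive group, with genotype given as KO, also carried Foxn1-Cre, a recombinase under a promoter active across the thymic epithelium, so that tuft cells are not its only target, and the Cre-negative group, given as WT, did not. Each group had 3 libraries. The table's columns are named Ko1 to Ko3 and Het1 to Het3; Ko was read as the Cre-positive group, and Het was then left for the Cre-negative group, although the labels never use that word. The age of the mice was not given in the sources used here, and they do not tie libraries to single animals, so the p-values reflect variation among these 6 libraries, which may be partly technical.

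Motile cilia beat by means of dynein motors that slide the microtubule doublets of the axoneme past each other. Outer and inner dynein arms are put together in the cytoplasm by assembly factors, and radial spokes with the central pair apparatus coordinate their strokes. The transcription factor FOXJ1, together with RFX factors and upstream of them GMNC and MCIDAS, switches on this gene program in multiciliated cells. In the thymic medulla, ciliated cells are among the mimetic cells, epithelial cells that carry programs of peripheral tissues.

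The libraries held 12238400 to 17140800 reads in the Ko group and 12429300 to 31435800 in the Het group, each to 6 digits. Tuft cell markers were abundant throughout: all 16 listed, among them Trpm5, Dclk1, Pou2f3 and Avil, were tested, and their summed level was 210262 to 258970 normalized counts in Ko libraries and 147196 to 194494 in Het libraries. Of the 16 markers, 14 had a positive and 2 a negative log2 fold change of Ko over Het, with a median of 0.29. Limma called 1 of them higher, Rgs13, and 0 lower, and DESeq2 called 1 higher, Rgs13, and 1 lower, Gng13. Rgs13 alone had 68079, 78565 and 98061 in Ko1, Ko2 and Ko3 and 34571, 29287 and 32157 in Het1, Het2 and Het3 (limma adjusted p = 0.00868). Trpm5, Dclk1, Pou2f3 and Avil overlapped between the groups. A normalized count is a gene's read count divided by the size factor of its library, and is not divided by gene length. Ikzf1 RNA was more abundant under the Ko label, with 1572, 1463 and 1717 normalized counts in Ko1, Ko2 and Ko3 and 301, 187 and 273 in Het1, Het2 and Het3 (log2 fold change 2.66 ± 0.30, SE; limma adjusted p = 0.0105, and 0.0621 without Het3). Less Ikzf1 RNA was therefore not seen under the Ko label, and counts over the whole gene do not show the deleted part, so each direction below is between libraries as labelled, not between verified genotypes. Het1 stood apart from Het2 and Het3 in the motile cilium genes: over the tested members the mean log2(normalized count + 1) was 5.05, 5.36 and 4.79 in Ko1, Ko2 and Ko3, and 5.98 in Het1 against 7.57 and 7.07 in Het2 and Het3.

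Motile cilium genes ranged from nearly unread in the libraries labelled Ko to abundant in all 6 libraries. The role that joins ruler and apical membrane genes had the lowest median log2 fold change of the roles, -5.82, with Sntn and Cdhr4 passing the test as lower. Both calls were lost without Het2 or without Het3, where limma called 14 and 0 of all genes tested, so the loss is not particular to them. The ruler genes of this role, Ccdc39 and Ccdc40, overlapped between the groups. Foxj1 was also low in every Ko library, though it did not pass the test, whereas its partner genes Rfx2 and Rfx3 overlapped between the groups. Among structural genes, Dynlrb2, Dnah6, Dnah9, Rsph4a, Rsph10b, Tekt1 and Cfap126 had their 3 Ko values below their 3 Het values, while Dnah5, Rsph1, Rsph9, Tekt5, Cfap20, Cfap36 and Cfap97 were well expressed in both groups. The data are bulk RNA, in which fewer ciliated cells and less RNA per cell cannot be told apart.

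Of the 86 genes, 74 had a mean of at least 10 normalized counts over the 6 libraries and were tested; the other 12 were too low. Limma on log2(normalized count + 1) called 2 of the 74 lower, Sntn and Cdhr4, and 0 higher; over all 19416 genes tested it called 0.525% lower and 0.288% higher (adjusted p under 0.05). DESeq2 on the recovered reads called 16 lower and 1 higher, where it called 4.24% of all genes lower and 2.1% higher, and edgeR called 1 lower, Sntn, and 0 higher, against 0.263% and 0.124% of all genes. In the authors' deposited table, of the 76 members with an adjusted p-value 21 were lower and 2 higher at adjusted p under 0.05, against 5.16% and 3.03% of all genes there. That table called Dnah2, Dnah7b, Dnah12, Spag6l, Hydin and Cfap77 lower and Cfap300 higher, which DESeq2 on the recovered reads did not. It left Dnai2 uncalled. In 24 of the 74 all Ko values lay below all Het values, and in 2 above them, against 9.86% and 8.57% of all tested genes. At an unadjusted limma p under 0.05, 24 were lower and 3 higher, against 7.99% and 5.62% of all tested genes. The median log2 fold change of the 74 was -1.72 and that of all tested genes -0.05. Of the 74, 58 values were negative (78.4%) and 16 positive, where 52.8% of all tested genes were negative. That share stands beside each count of signs below. The shares of all genes called stand in the same way beside each count of calls. They were 0.525% lower and 0.288% higher by limma, and 4.24% lower and 2.1% higher by DESeq2. A gene that is high in only 1 group can pass the filter through that group, so these counts describe the genes that passed and say nothing of the 12 that did not.

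**Figure D1:**
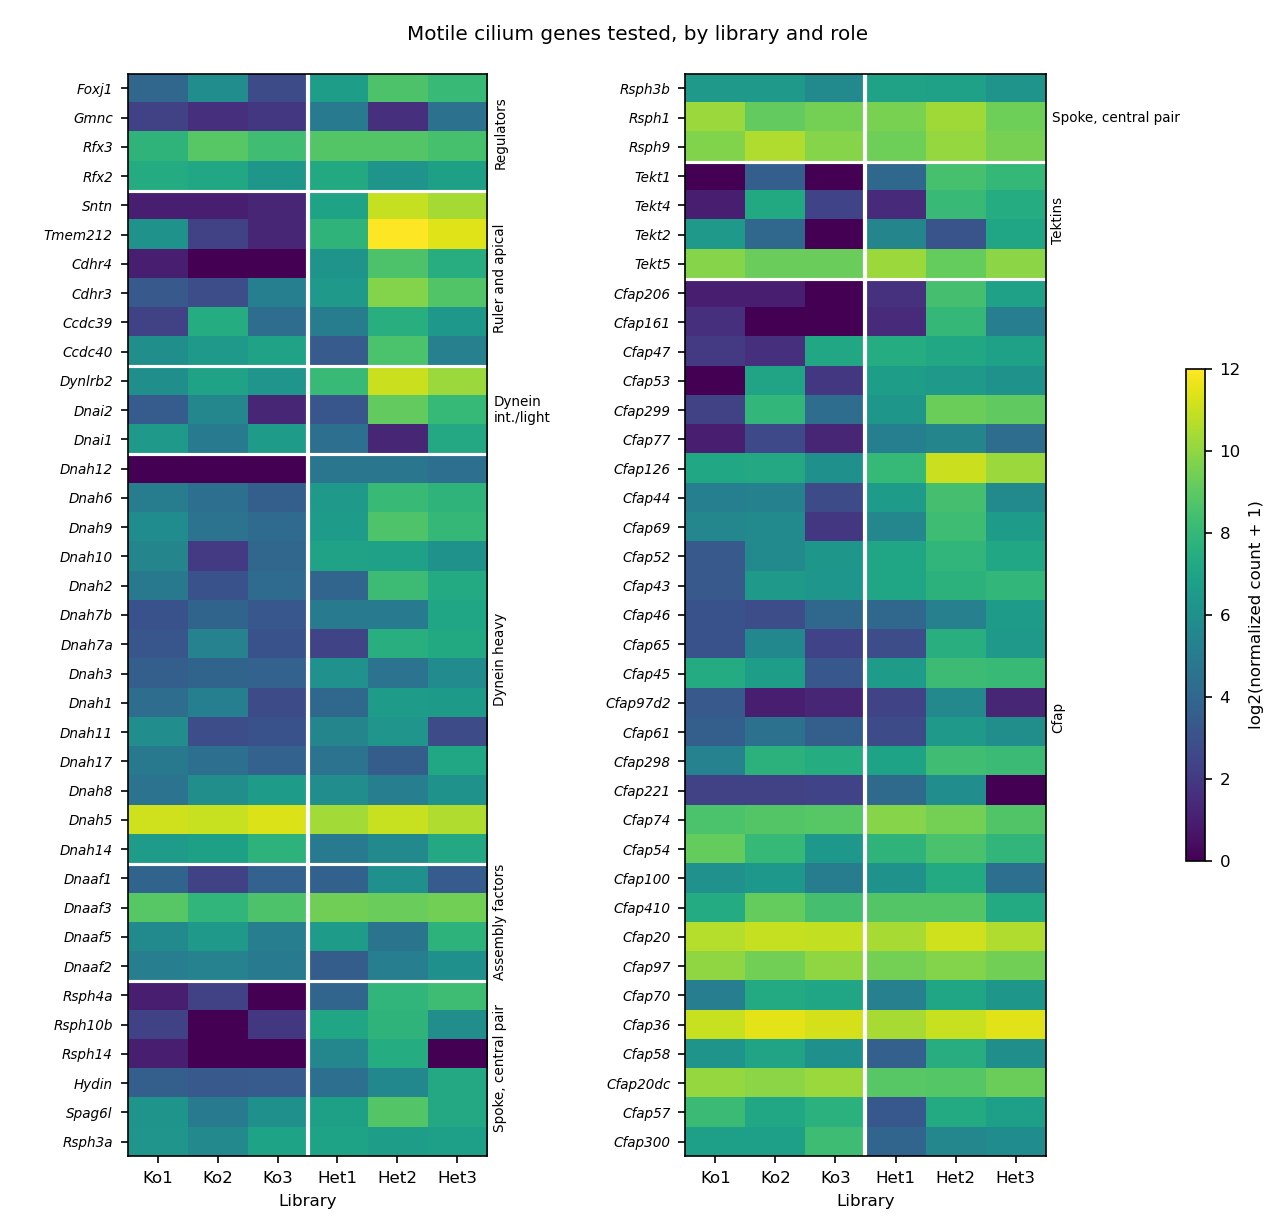
Level of each of the 74 tested motile cilium genes (rows, by role and then by fold change) in Ko1 to Ko3 and Het1 to Het3 (columns), as log2(normalized count + 1) in colour. Sntn, Cdhr4, Rsph4a and Dnah12 are near 0 in the Ko columns, while Dnah5, Cfap20, Cfap36 and Rsph9 are bright in all 6, and Het1 is the lowest Het library in 42 of the 74 rows.

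Reads of the 86 genes together made up 0.0885%, 0.0930% and 0.0895% of all reads in Ko1, Ko2 and Ko3, and 0.0828%, 0.203% and 0.141% in Het1, Het2 and Het3. Each share had a 95% Wilson interval of the width that counting error alone gives, for example 0.0871% to 0.0900% in Ko1 and 0.202% to 0.205% in Het2. Het1 thus lay below the Ko libraries in this sum, which is carried by the abundant members, yet above them in the mean log2 level, in which every tested gene counts alike. At least 1 read was found for 77, 76 and 73 of the 86 genes in Ko1, Ko2 and Ko3, and for 84, 83 and 79 in Het1, Het2 and Het3. Ko3 and Het3 had almost the same depth, and 30 genes had at most 3 reads in Ko3 against 13 in Het3. Among the 74 tested genes Het1 was the lowest Het library for 42 and Het2 the highest for 46. The Ko libraries showed no such order, with Ko1 highest for 27 genes, Ko2 for 32 and Ko3 for 15.

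The regulators stand at the head of the program. Foxj1, the forkhead factor of motile ciliated cells, had 14.4, 58.0 and 5.73 normalized counts in Ko1, Ko2 and Ko3, and 101, 400.4 and 281 in Het1, Het2 and Het3. The groups did not overlap, with the highest Ko value in Ko2 and the lowest Het value in Het1. On the log2 scale the change was -3.63 ± 1.004 (SE; limma adjusted p = 0.143, DESeq2 adjusted p = 0.00820). Rfx3, an RFX factor that ciliated cells share with many cells bearing a primary cilium, had 222, 478 and 322 in Ko libraries and 443, 435 and 358 in Het libraries (log2 fold change -0.34 ± 0.40; limma adjusted p = 0.774). Rfx2 had 168, 142 and 81.6 in Ko libraries and 154, 73.8 and 111 in Het libraries (0.21 ± 0.63; limma adjusted p = 0.924). Both RFX genes overlapped between the groups. Gmnc, the geminin relative that starts multiciliated cell fate, was low everywhere, with 4.12, 2.07 and 2.86 in Ko libraries and 30.8, 2.13 and 21.6 in Het libraries, so that Het2, which was highest for Foxj1, was level with the Ko libraries here (limma adjusted p = 0.672). Mcidas, which acts after Gmnc, was below the filter, at 4.12, 3.11 and 27.2 in Ko libraries and 8.95, 1.42 and 0 in Het libraries.

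Genes of the ciliary tip and apical membrane come next. Sntn, encoding sentan of the ciliary tip, fell to 1.03, 1.04 and 1.43 normalized counts in Ko1, Ko2 and Ko3, against 122, 1960.3 and 1317 in Het1, Het2 and Het3. The Ko values are 1 read per library, 3 reads in all, against 3892 reads in the Het group; the rate was 879 times higher in Het libraries, with a 95% counting interval from 301 to 4264. On the log2 scale this was -8.30 ± 1.19 (SE; limma adjusted p = 0.0191, edgeR adjusted p = 0.0291, DESeq2 adjusted p = 1.12e-16). The call was lost without Het2 (limma adjusted p = 0.130) or Het3 (0.159), and without Het1 the log2 fold change was -9.54 (0.0176).

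Cdhr4, a cadherin-related gene, fell to 1.03, 0 and 0 normalized counts in Ko1, Ko2 and Ko3, against 72.7, 406 and 177 in Het1, Het2 and Het3. It had 1 read in the Ko group and 825 in the Het group, a rate 559 times higher in Het libraries (95% counting interval 100.045 to 22104). On the log2 scale this was -7.11 ± 1.26 (SE; limma adjusted p = 0.0403, edgeR adjusted p = 0.0523). Leaving out any single library lost this call, with limma adjusted p-values from 0.0567 without Ko1 through 0.0625 without Het1 to 0.205 without Het2. Counting intervals cover counting error only, since reads made by PCR are not independent molecules.

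Cdhr3, a relative of Cdhr4 and an airway cadherin that human rhinovirus C uses as a receptor, had 9.26, 6.22 and 35.8 in Ko libraries and 89.5, 874 and 427 in Het libraries. Tmem212, a transmembrane gene of multiciliated cells, had 71.0, 4.14 and 1.43 in Ko libraries and 219.8, 5957 and 2772 in Het libraries. Neither gene overlapped between the groups, and neither passed the test (Cdhr3 log2 fold change -4.53 ± 1.05, limma adjusted p = 0.0868; Tmem212 -7.32 ± 1.42, limma adjusted p = 0.0504), while DESeq2 called both (adjusted p = 3.12e-06 and 0.00208). Ccdc39 and Ccdc40, whose products form the molecular ruler that sets the spacing of inner dynein arms, did not separate the groups. Ccdc39 had 4.12, 173 and 18.6 in Ko libraries and 33.0, 186 and 82.2 in Het libraries, and Ccdc40 had 62.8, 86.0 and 120.3 in Ko libraries and 10.1, 382 and 36.1 in Het libraries. Both overlapped. Ccdc39 had a negative fold change (log2 -1.64; limma adjusted p = 0.648), whereas the sign for Ccdc40 depended on the tool (log2 fold change 0.70 with limma, -0.64 with edgeR, -0.66 with DESeq2; limma adjusted p = 0.854).

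**Figure D2:**
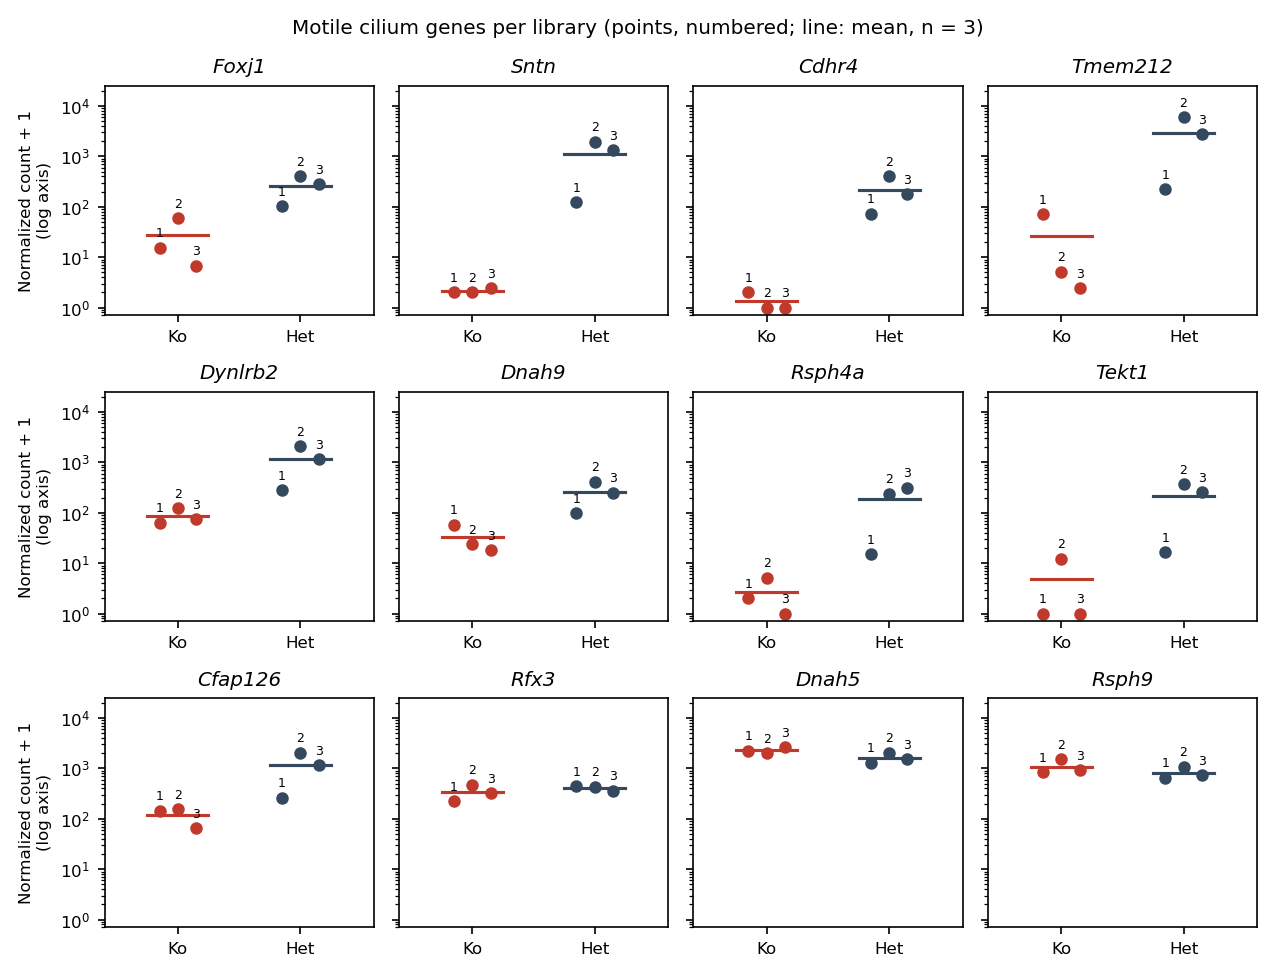
Normalized counts plus 1 on a log axis for 12 motile cilium genes, with Ko libraries left and Het libraries right in each panel; points are numbered libraries and the line is the mean (n = 3 each). Sntn and Cdhr4 sit below 3 in all Ko libraries, and Het1 is the lowest Het point for Foxj1, Sntn, Tmem212 and Dynlrb2, whereas Rfx3, Dnah5 and Rsph9 overlap.

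Among dynein subunits other than heavy chains, Dynlrb2, a light chain of the roadblock family, had 62.8, 121 and 74.5 normalized counts in Ko1, Ko2 and Ko3, and 279, 2097 and 1172 in Het1, Het2 and Het3. All Ko values lay below all Het values. Its fold change on the log2 scale was -3.40 ± 0.69 (SE; limma adjusted p = 0.0582, DESeq2 adjusted p = 2.69e-08), and without Het1 limma called it (-4.23; adjusted p = 0.0194). Dnai2, an intermediate chain of the outer arm listed as Dnaic2, had 10.3, 45.6 and 1.43 in Ko libraries and 8.39, 562 and 264 in Het libraries, so that Het1 lay among the Ko libraries (log2 fold change -3.37 ± 1.66; limma adjusted p = 0.419, DESeq2 adjusted p = 0.0252). Dnai1, the partner of Dnai2 in the outer arm and listed as Dnaic1, had 85.4, 30.0 and 96.0 in Ko libraries and 20.1, 1.42 and 149 in Het libraries (log2 fold change 1.70 ± 1.46; limma adjusted p = 0.672). The outer arm chains Dnai1 and Dnai2 thus had opposite signs, and neither change passed limma.

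Of the 15 dynein heavy chain genes, 14 were tested; 12 had a negative and 2 a positive fold change, and limma called 0 while DESeq2 called 2, Dnah6 and Dnah9. Dnah9, an outer arm motor, had 56.6, 22.8 and 17.2 in Ko libraries and 96.2, 412 and 249.6 in Het libraries (log2 fold change -2.89 ± 0.84; limma adjusted p = 0.159, DESeq2 adjusted p = 0.00828). Dnah6, an inner arm motor, had 31.9, 19.7 and 11.5 in Ko libraries and 89.5, 275 and 222 in Het libraries (-3.12 ± 0.85; limma adjusted p = 0.140, DESeq2 adjusted p = 0.00472). In both the groups did not overlap.

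Dnah12, also an inner arm motor, was without reads in all 3 Ko libraries and had 25.2, 25.6 and 20.2 normalized counts in Het1, Het2 and Het3, 95 reads in all. It was at least 21.5-fold lower in Ko libraries, taking 3 reads for the whole Ko group as the floor. Its Het mean was 23.6 ± 2.99 (SD, n = 3; limma adjusted p = 0.179). Dnah10 had 43.2, 3.11 and 14.3 in Ko libraries and 119.7, 116 and 69.3 in Het libraries (log2 fold change -2.83 ± 1.11; limma adjusted p = 0.303). Dnah7b and Dnah3 also had their Ko values below their Het values, but Dnah7a, Dnah7b and Dnah7c are near-identical genes whose reads may be shared, so their separate values are uncertain; Dnah7c was below the filter.

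Dnah5, the other main outer arm motor, behaved differently from Dnah9. It had 2248, 2008 and 2656 normalized counts in Ko1, Ko2 and Ko3, and 1296, 2054 and 1522 in Het1, Het2 and Het3, overlapping between the groups (log2 fold change 0.52 ± 0.23; limma adjusted p = 0.359). Dnah14, with the most positive value of the family, had 98.8, 113 and 216 in Ko libraries and 28.5, 52.5 and 151.5 in Het libraries (1.12 ± 0.80; limma adjusted p = 0.594). The values of Dnah1, Dnah2, Dnah8, Dnah11 and Dnah17 overlapped between the groups.

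Dynein arm assembly factors showed no call by any of the 3 tools. Dnaaf3 had 476, 238 and 407 in Ko libraries and 679, 603 and 701 in Het libraries without overlap (log2 fold change -0.88 ± 0.36; limma adjusted p = 0.317). Dnaaf1 had 13.4, 4.14 and 12.9 in Ko libraries and 12.3, 63.2 and 10.1 in Het libraries, and Dnaaf5 had 50.4, 90.1 and 34.4 in Ko libraries and 94.5, 23.4 and 212 in Het libraries. Dnaaf1, Dnaaf2 and Dnaaf5 overlapped between the groups, with log2 fold changes of -1.07, 0.25 and -0.53 (limma adjusted p = 0.785, 0.949 and 0.864). Dnaaf4, listed as Dyx1c1, had 0 reads in all 6 libraries, and Dnaaf6, listed as Pih1d3, had 0 reads in Ko and 3 in Het libraries. The related Dnaaf6b, listed as Pih1h3b, had all of its 77 reads in Het2.

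Radial spoke genes split by subunit. Rsph4a, a spoke head gene found mutated in human primary ciliary dyskinesia, had 1.03, 4.14 and 0 in Ko libraries and 14.0, 238 and 313 in Het libraries (log2 fold change -5.57 ± 1.52; limma adjusted p = 0.139, DESeq2 adjusted p = 3.82e-05). Rsph10b had 4.12, 0 and 2.86 in Ko libraries and 138, 219 and 59.2 in Het libraries (-5.50 ± 1.25; limma adjusted p = 0.0828, DESeq2 adjusted p = 1.11e-04). In both, every Ko library lay below every Het library.

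Rsph14 had 1 read in Ko1 as its only Ko read and 45.3, 173 and 0 normalized counts in Het1, Het2 and Het3, so Het3 was as empty as Ko2 and Ko3 (log2 fold change -3.99 ± 2.004; limma adjusted p = 0.429, DESeq2 adjusted p = 0.0180). The spoke head genes Rsph1 and Rsph9 were abundant in both groups. Rsph9 had 842, 1510.4 and 917 in Ko libraries and 653, 1087 and 736 in Het libraries (0.39 ± 0.32; limma adjusted p = 0.654), and Rsph1 had 1187, 560.4 and 718 in Ko libraries and 776, 1267 and 655 in Het libraries (-0.14 ± 0.36; limma adjusted p = 0.905). Rsph3a and Rsph3b, near-identical genes, overlapped too, and Rsph6a was below the filter.

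The central pair genes Spag6l and Hydin both had Ko values below Het values without passing any of the 3 tools run here. The authors' deposited table called both lower (adjusted p = 0.0389 and 0.0392). Spag6l, the mouse copy of SPAG6, had 74.1, 29.0 and 63.0 in Ko libraries and 114, 448 and 151.5 in Het libraries (log2 fold change -1.92 ± 0.76; limma adjusted p = 0.303). Hydin, whose loss causes hydrocephalus in mice, had 11.3, 9.32 and 10.0 in Ko libraries and 19.6, 47.6 and 150.1 in Het libraries (-2.25 ± 1.15; limma adjusted p = 0.439).

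Tektins are filament proteins inside the doublet microtubules. Tekt1 had 0, 11.4 and 0 normalized counts in Ko1, Ko2 and Ko3, and 15.7, 368 and 255 in Het1, Het2 and Het3 (log2 fold change -5.65 ± 1.63; limma adjusted p = 0.158, DESeq2 adjusted p = 0.00116), with no overlap. Tekt4 had 1.03, 156 and 4.30 in Ko libraries and 1.68, 283 and 169 in Het libraries (-2.08 ± 2.08; limma adjusted p = 0.723), so that Ko2 lay near Het3 and Het1 near Ko1. Tekt2 had 87.5, 15.5 and 0 in Ko libraries and 42.5, 7.81 and 134 in Het libraries (-1.72 ± 1.76; limma adjusted p = 0.733). Tekt5, which is known mainly from sperm flagella, was abundant in both groups, with 910 (909.5), 614 and 620.2 in Ko libraries and 1171, 571 and 952 in Het libraries (-0.29 ± 0.34; limma adjusted p = 0.768). Tekt3 was below the filter, with 3 reads in Ko and 21 in Het libraries.

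Cfap genes, named for cilia and flagella associated proteins of mixed roles, made up 34 members, of which 30 were tested; 21 had a negative and 9 a positive fold change. Limma called 0 of them, and DESeq2 called 3 lower (Cfap126, Cfap161 and Cfap206) and 1 higher (Cfap20dc). Cfap126, also known as Flattop, had 144, 152 and 64.5 in Ko libraries and 261, 2070.3 and 1160.1 in Het libraries (log2 fold change -2.92 ± 0.71; limma adjusted p = 0.105, DESeq2 adjusted p = 6.26e-06), and without Het1 limma called it (-3.77; adjusted p = 0.0290). Cfap206, a gene of the radial spoke region, had 2 reads in the Ko group and 581 in the Het group, at 2.24, 352 and 117 normalized counts in Het1, Het2 and Het3, a rate 197 times higher in Het libraries (95% counting interval 54.2 to 1629; limma adjusted p = 0.268, DESeq2 adjusted p = 3.42e-04). Cfap161 had 2 and 388 reads in the Ko and Het groups, at 1.68, 256 and 34.6 normalized counts in Het1, Het2 and Het3, with the Het1 value within the Ko range of 0 to 2.06 (limma adjusted p = 0.339, DESeq2 adjusted p = 0.00795).

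Several Cfap genes pointed the other way. Cfap20dc, listed as 4930452B06Rik, had 1095, 970 (969.6) and 1190.3 normalized counts in Ko1, Ko2 and Ko3, and 471, 452 and 633 in Het1, Het2 and Het3, without overlap (log2 fold change 1.07 ± 0.27; limma adjusted p = 0.116, DESeq2 adjusted p = 0.0155). Cfap300, an assembly factor of dynein arms, had 107, 108 and 305 in Ko libraries and 14.0, 46.1 and 56.3 in Het libraries, also without overlap (2.16 ± 0.85; limma adjusted p = 0.306). These were the only 2 of the 74 tested genes with every Ko value above every Het value. Among all tested genes 8.57% separated in this direction, a larger share than among the 74. Cfap57 had 287, 139 and 201 in Ko libraries and 8.95, 158 and 108 in Het libraries, which overlapped through Het2.

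Cfap77 had 1.03, 5.18 and 1.43 in Ko libraries and 35.2, 43.3 and 18.8 in Het libraries, low throughout but without overlap.

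Cfap20, Cfap36 and Cfap97, all abundant, overlapped between the groups. Cfap20, a widely expressed doublet protein gene, had 1619, 1962 and 1928 in Ko libraries and 1369.6, 2229 and 1512 in Het libraries (log2 fold change 0.14 ± 0.24; limma adjusted p = 0.857). Cfap36 had 2050.5, 2894 and 2396 in Ko libraries and 1398, 2047 and 2828 in Het libraries (0.27 ± 0.27; limma adjusted p = 0.722), and Cfap97 had 1036, 687 and 1026 in Ko libraries and 729, 878 and 695 in Het libraries (0.24 ± 0.28; limma adjusted p = 0.774). Cfap43, Cfap44, Cfap52 and Cfap77 had Ko values below Het values with limma adjusted p-values from 0.304 to 0.342. Cfap53, Cfap299 and Cfap47 (listed as Gm7173) were below their Het range in 2 Ko libraries each. The other Ko library lay within it for Cfap299 (244 in Ko2) and Cfap47 (145 in Ko3), and above it for Cfap53 (127 in Ko2, against a highest Het value of 104 in Het1). The values of Cfap45, Cfap46, Cfap54, Cfap58, Cfap61, Cfap65, Cfap69, Cfap70, Cfap74, Cfap97d2, Cfap100, Cfap221, Cfap298 and Cfap410 (listed as 1810043G02Rik) overlapped between the groups, and Cfap73, Cfap97d1, Cfap99 and Cfap157 were below the filter.

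**Figure D3:**
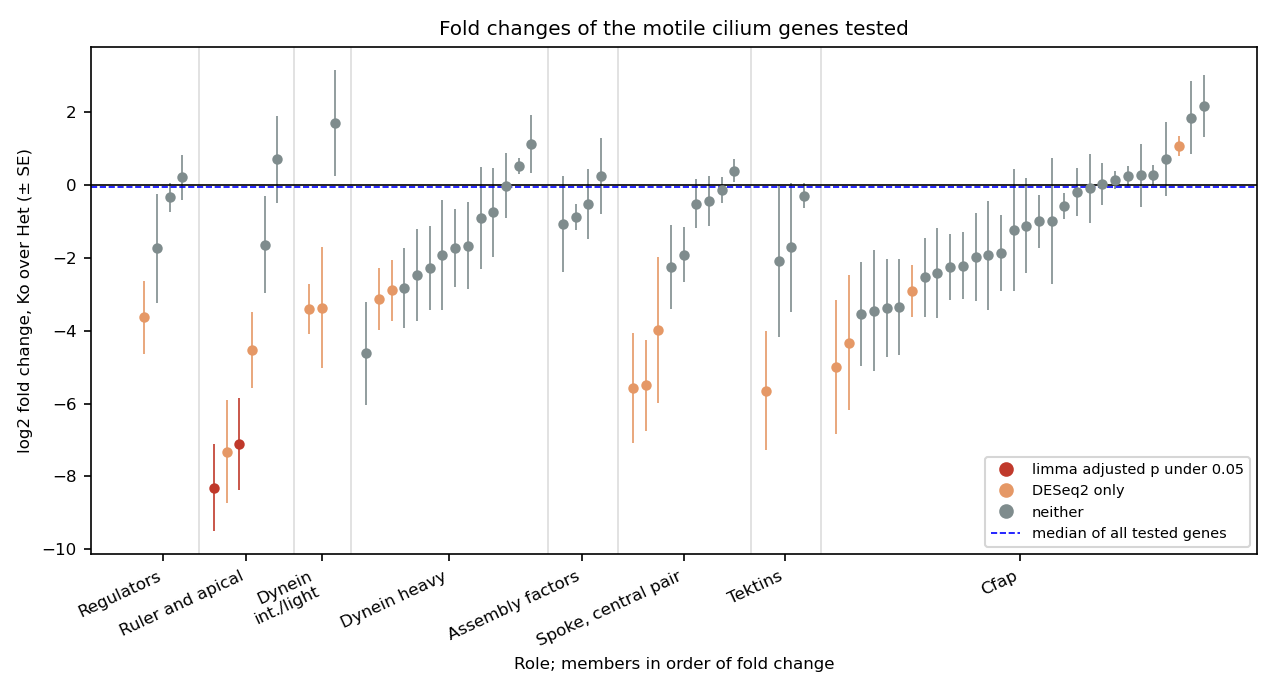
Log2 fold change of Ko over Het on the log2(normalized count + 1) scale, with its SE, for the 74 tested motile cilium genes grouped by role; colour marks the genes called by limma, by DESeq2 only or by neither, and the dashed line is the median of all tested genes. Sntn and Cdhr4 are the limma calls, and every role but the tektins has members on both sides of 0.

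Promoters of these genes were searched for 2 motifs, because RFX factors bind the X-box and FOXJ1 a forkhead site, and because the levels of Foxj1 and of the RFX genes differed in their pattern above. The X-box was searched as GTNNCC, a spacer of 0 to 3 N, and NGNAAC, and the forkhead core as TGTTTAC, each on both strands; the motifs were not counted where they fell outside the window of 250 bases before to 50 after the start. Promoters came from RefSeq on GRCm38.p6, a build other than the GRCm39 of the expression files, and 72 of the 86 genes had an entry. An X-box was found in 24 of the 72 genes (33.3%), against 5.94% of the 27025 genes in the promoter table, and a forkhead core in 5 of 72 (6.94%), against 4.05%. The X-box was as frequent in members with a log2 fold change below -2 as in the other tested members, at 8 of 25 and 13 of 38. The forkhead core was found in 2 of those 25 and 2 of those 38. A match is a description of letters, not a site shown to be bound.

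The X-box stretches below, in capitals, are shown because they lie at members of both kinds: Cfap206, Dnai2 (Dnaic2), Dnah9, Dynlrb2 and Rsph14 were called lower by DESeq2, Cfap20dc (4930452B06Rik) was called higher by it, and Dnaaf2, Cfap58 and Rfx2 overlapped between the groups. For Sntn the capitals mark the forkhead core, read on the other strand. The forkhead core also lay at Cfap20 and Dnah17, which overlapped between the groups, at Cfap43, and at Tekt3, which was below the filter. Each line gives the gene's strand, 5′ to 3′.
Cfap206 (chr4:34730198-34730247, minus strand): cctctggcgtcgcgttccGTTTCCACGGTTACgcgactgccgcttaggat
Dnaic2 (chr11:114727367-114727416, plus strand): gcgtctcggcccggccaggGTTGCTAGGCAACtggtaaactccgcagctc
Dnah9 (chr11:66168603-66168652, minus strand): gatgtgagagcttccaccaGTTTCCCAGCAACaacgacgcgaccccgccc
Dynlrb2 (chr8:116504945-116504994, plus strand): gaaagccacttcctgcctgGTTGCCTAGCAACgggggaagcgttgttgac
Rsph14 (chr10:75032570-75032619, minus strand): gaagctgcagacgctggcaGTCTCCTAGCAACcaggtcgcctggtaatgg
4930452B06Rik (chr14:8666361-8666410, minus strand): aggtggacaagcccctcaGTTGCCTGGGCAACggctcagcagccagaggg
Dnaaf2 (chr12:69198415-69198464, minus strand): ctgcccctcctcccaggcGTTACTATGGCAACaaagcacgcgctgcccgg
Cfap58 (chr19:47937634-47937683, plus strand): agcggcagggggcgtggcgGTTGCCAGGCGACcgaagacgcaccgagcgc
Rfx2 (chr17:56831093-56831142, minus strand): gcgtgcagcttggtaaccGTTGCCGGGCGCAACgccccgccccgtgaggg
Sntn (chr14:13670626-13670675, plus strand): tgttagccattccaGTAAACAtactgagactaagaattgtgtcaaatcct
Counted from the annotated start, with bases before it negative, the centre of the X-box lay at -76 in Dnah9, -45 in Dynlrb2 and -16 in Cfap206, and the forkhead core of Sntn was centred at -233. Dnaaf2, with an X-box too, had 34.0, 39.4 and 30.1 normalized counts in Ko libraries and 10.6, 34.1 and 63.5 in Het libraries.

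Genes that share the pathway were taken from lists beside the member rule. Other axonemal and ciliated cell genes followed the members: 41 of 47 were tested, 32 values were negative and 9 positive, their median on the log2 scale was -1.28, and limma called 1 lower and 0 higher, DESeq2 9 lower and 0 higher. The limma call was Capsl, a calcyphosine-like gene, at 1390.0, 1116 and 869 normalized counts in Ko1, Ko2 and Ko3 and 2521, 3375 and 2967 in Het1, Het2 and Het3 (log2 fold change -1.41 ± 0.24; limma adjusted p = 0.0341). Its call was kept without Ko1 (limma adjusted p = 0.0371) and lost without any other single library, with limma adjusted p-values from 0.0518 without Het1 to 0.163 without Het3. Nme9 had 1.03, 3.11 and 32.9 in Ko libraries and 101, 609.9 and 463 in Het libraries (limma adjusted p = 0.0826), and Enkur, encoding enkurin of the doublet lumen, had 53.5, 24.9 and 107 in Ko libraries and 174, 1703 and 743 in Het libraries (0.105). This median was -0.50 without Het2.

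The list of multiciliated cell commitment and centriole amplification had 14 of 15 tested, with 6 negative and 8 positive values and a median log2 fold change of 0.06. Its mean log2(normalized count + 1) was 6.39, 6.28 and 6.13 in Ko1, Ko2 and Ko3. In Het1, Het2 and Het3 it was 6.44, 7.09 and 6.81, above every Ko library though only slightly so in Het1. Limma called 0 of them and DESeq2 1 lower, Ccdc78, a gene of the deuterosomes from which multiciliated cells build their basal bodies. Ccdc78 had 8.23, 1.04 and 0 in Ko libraries and 25.2, 290.4 and 186 in Het libraries (limma adjusted p = 0.130, DESeq2 adjusted p = 0.000525). Gmnn, encoding geminin, had 282, 141 and 433 in Ko libraries and 467, 442 and 1170.2 in Het libraries (limma adjusted p = 0.327). E2f5, a partner of the GMNC and MCIDAS proteins, had 800.4, 797 and 481 in Ko libraries and 443, 377 and 424 in Het libraries (0.390). Neither overlapped between the groups.

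Ciliary transport genes (intraflagellar transport and the BBSome), which primary cilia also need, had 36 of 37 tested, 19 negative and 17 positive values, and a median of -0.04. Limma called 0 of them and DESeq2 1 lower, Ift81, at 1595, 1578 and 1242 in Ko libraries and 2168, 2688 and 2591 in Het libraries (limma adjusted p = 0.135, DESeq2 adjusted p = 0.0252). Bbs2, of the BBSome, had 940.4, 772 and 991 in Ko libraries and 614, 682 and 535 in Het libraries (limma adjusted p = 0.406), and Ift43 had 963, 846 and 1057 in Ko libraries and 1126, 2354 and 1169 in Het libraries (0.432).

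**Figure D4:**
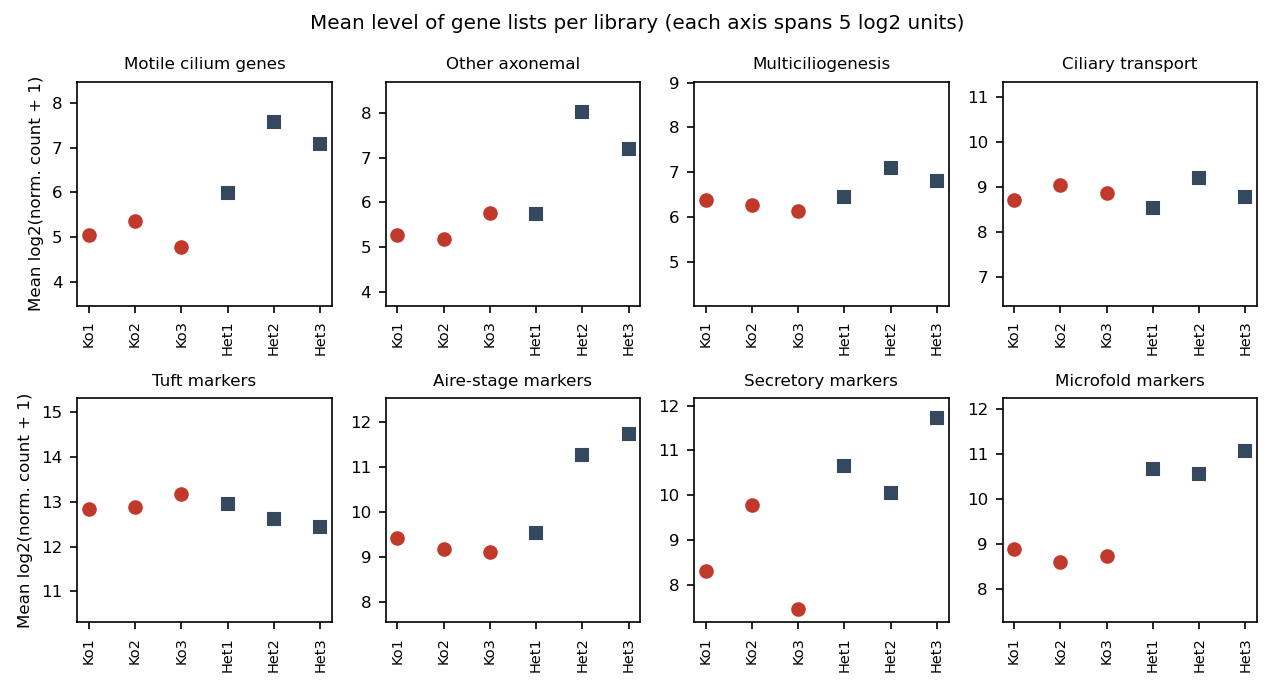
Mean log2(normalized count + 1) over the tested genes of each list, with Ko libraries as circles left of Het libraries as squares; each axis spans 5 log2 units. The motile cilium genes and the other axonemal genes are lower in the Ko libraries than in Het2 and Het3, ciliary transport genes overlap, and Het1 lies near the Ko libraries in the Aire-stage markers.

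Among markers of other cells, those of Aire-stage, secretory, microfold, neuroendocrine and testis germ cells mostly had negative fold changes, as the motile cilium genes did. The median log2 fold changes of these 5 lists were -1.03, -2.44, -2.03, -2.32 and -1.35, against -1.72 for the motile cilium genes. Medians of the remaining lists of other cells ran from -1.05 (B cell) to 1.38 (muscle). The part of these other cells in the result was not tested. Aire-stage medullary markers were all tested (12 of 12), all with a negative fold change, with 0 called by limma and 6 lower by DESeq2; their summed level was 80091 to 131408 normalized counts in Ko libraries and 115607 to 278575 in Het libraries. Secretory cell markers (12 of 12 tested, 11 negative, 3 lower by limma) summed to 17735 to 108573 in Ko libraries and 142684 to 221274 in Het libraries. Microfold cell markers (10 of 10 tested, 7 negative, 2 lower by limma) summed to 21925 to 24302 in Ko libraries and 37920 to 53904 in Het libraries. These sums are carried by abundant genes, such as Cd74 among Aire-stage markers and Reg3g among secretory markers, with Bpifa1 at 74210 in Ko2. Het1, low in the motile cilium genes, was also low in the Aire-stage markers, at 115607 against 278575 and 275843 in Het2 and Het3. It was not the lowest Het library in the secretory or microfold markers. Mean log2(normalized count + 1), in which each gene counts alike, was 9.53 in Het1 against 11.28 and 11.74 in Het2 and Het3 for Aire-stage markers. For secretory markers it was 10.65 in Het1 against 10.06 and 11.73.

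Spermatogenic cells also build axonemes. Of 15 testis germ cell markers, 7 were tested, 5 with a negative fold change, and limma and DESeq2 called 0. All Ko values lay below all Het values in 2 of the 7. The list summed to 185 to 286 in Ko libraries and 341 to 834 in Het libraries. Neuroendocrine markers (7 of 10 tested, 5 negative) summed to 255 to 780.1 in Ko and 887 to 1468 in Het libraries, ionocyte markers (6 of 9 tested, 4 negative) to 213 to 726 and 537 to 868, and keratinocyte markers (10 of 10 tested, 6 negative) to 12016 to 28434 and 13935 to 22971. Muscle markers (9 of 10 tested, 3 negative) summed to 2025 to 12897 in Ko and 845 to 4289 in Het libraries, and cortical epithelial markers (8 of 8 tested, 4 negative) to 4709 to 7086 and 3143 to 16329. Muscle markers had a median log2 fold change of 1.38, with 1 called higher and 1 lower by DESeq2. Limma called 1 cortical marker higher, Ackr4 (adjusted p = 0.0485), and 0 lower. Thymocyte markers (6 of 10 tested, 3 negative) summed to 454 to 859 and 745 to 992, and B cell markers (5 of 7 tested, 3 negative) to 5202 to 5844 and 2357 to 3560 (3559.5). Most of the B cell sum was Cd79b, at 4665, 5508 and 5665 in Ko libraries and 3039, 1876 and 2473 in Het libraries. Limma called Cd79b higher (adjusted p = 0.0433), whereas Cd79a, Pax5 and Ighm had negative fold changes and overlapped between the groups. No listed marker was without reads in all 6 libraries.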

How the data were processed

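The authors' deposited signal for each gene and library is its read count over that library's size factor. The submitters' processing notes name STAR 2.7.9a, the build GRCm39 and DESeq2, and the sources used here do not name the counter, annotation, strand setting or filters. Reads of overlapping antisense genes therefore cannot be told apart. A second deposited table, of the authors' own comparison, lists a log2 fold change, a Wald score and p-values, raw and adjusted, per the file headers. Every column's values were whole multiples of 1 step, and dividing by it gave whole reads, within 0.01, for 100% of values above 0.

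Symbols came from a gene name table that matched 55144 of 55471 genes; other symbols came from RefSeq (GRCm38.p6). The members and lists were chosen with earlier results of these data known. Genes with a mean of at least 10 entered limma 3.58.1 (R 4.3.3) as log2(value + 1) (trended eBayes, two-sided, genotype only), adjusted by Benjamini-Hochberg over all 19416 genes; fold changes of low genes are understated on this scale. An exact permutation test of 3 against 3 libraries cannot go below 0.10. Alternatives were other pseudocounts, filters and TMM factors, edgeR 4.0.16 and DESeq2 1.42.0 on recovered reads (an adjusted p left NA stayed NA), a block by column number and leaving out each library with the filter reapplied. The tests were checked on simulated data. Genes with values per library are the regulators, all members called by any of the 3 tools, and in each role the 4 with the smallest p and the 1 with the most positive fold change, and 3 per pathway list; others named were chosen after their values were seen. Replicates of a group differed beyond counting noise (chi-square per degree of freedom 51.7 to 121).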

Additional observations from a re-analysis of the deposited data

How the results depend on the processing

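Limma called 158 of all genes tested, edgeR 75, DESeq2 1118 and limma with a replicate block by column number 87; leaving out a library gave 0 (without Het3) to 116 calls (without Ko1). Motile cilium genes called lower were 2 with limma, 1 with edgeR, 16 with DESeq2 and 2 with the block (Sntn and Dynlrb2), and 0 to 4 without 1 library, with 0 without Het2 or Het3, 1 without Ko2 or Ko3 and 4 without Het1; those called higher were 0, or 1 with DESeq2. Their median log2 fold change stayed negative under all alternatives run, from -2.27 without Het1 to -1.22 without Het2, and with TMM factors it was -1.71. The multiciliogenesis median was 0.47 when the filter was raised to 50. With GTTGCC alone in place of the X-box, the share of members with a motif was 47.2%, against 14.1% of all genes in the promoter table. Cdhr4 was not called with that filter (adjusted p = 0.0867), edgeR (0.0523) or the block (0.0759). None of the sign changes below was a call. Ccdc40 was at -0.64 with edgeR, -0.66 with DESeq2 and -0.44 without Het1, and Dnaaf2 at -0.030 with edgeR, -0.052 with DESeq2 and -0.43 without Het1. Leaving out single libraries gave -0.44 to 2.11 for Ccdc40, -0.43 to 0.80 for Dnaaf2, -1.38 (without Het2) to 0.19 (without Het3) for Dnaaf5, -3.20 (without Ko1) to 0.037 (without Ko3) for Tekt2, and -0.066 (without Het2) to 0.51 (without Ko3) for Rfx2. The cause of these changes was not tested. The column numbers are not shared replicate numbers in the labels, and same-numbered columns did not deviate together (correlations 0.025, 0.0214 and -0.0153), so the block carries no pairing. In the least deep libraries 3 reads are 4.33 (Het3) and 4.30 (Ko3) normalized counts, which limits what can be said of values below that.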
